A study of Solanum lycopersicum with 36 samples.

Results

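Carotenes with closed rings are turned into xanthophylls, and 9 genes of that stretch of the carotenoid pathway were followed here over a day in tomato leaf. They were chosen by identifier as the enzymes that lead from lycopene through the xanthophyll cycle to the cleavage step for abscisic acid (ABA), and all 9 were present among the 34075 gene identifiers of the count tables. They are the ring cyclases LCYB (gene:Solyc04g040190.1) and LCYE (Solyc12g008980), the carotene hydroxylases BCH1 (Solyc06g036260), BCH2 (Solyc03g007960), CYP97A29 (Solyc04g051190) and CYP97C11 (Solyc10g083790), zeaxanthin epoxidase ZEP (Solyc02g090890), violaxanthin de-epoxidase VDE (Solyc04g050930), and the 9-cis-epoxycarotenoid dioxygenase NCED1 (gene:Solyc07g056570.1). The count tables pair no names with identifiers. Each of the 9 names, or a RefSeq synonym of it, was found in RefSeq on the chromosome that the identifier carries.

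Lycopene is closed at both ends by beta rings to give beta-carotene, the work of LCYB, or by an epsilon and a beta ring to give alpha-carotene, for which LCYE is also needed. Hydroxylases then make zeaxanthin from beta-carotene and lutein from alpha-carotene. In the xanthophyll cycle of chloroplasts, VDE turns violaxanthin into zeaxanthin under excess light, which helps leaves to shed absorbed energy as heat, and ZEP turns it back in weak light or darkness. Epoxidised xanthophylls made by way of ZEP are also the source of ABA, and NCED enzymes cut them to xanthoxin, its precursor.

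The study sampled leaves of the tomato genotype written HeinZ 1706 in the labels, at 4 weeks of age, from plants kept at 25 °C under 12 h of light and 12 h of darkness. Sampling covered 3 points of the light phase (Light 0 h, Light 4 h, Light 8 h) and 3 of the dark phase (Dark 0 h, Dark 4 h, Dark 8 h). The label's hour was taken as time elapsed in that phase. The labels name no mutation or chemical treatment, and all groups share the same genotype, temperature and day length. From leaf RNA, 18 mRNA and 18 GMUCT libraries were made, with 3 replicates per time. The mRNA libraries count polyadenylated transcripts, and the GMUCT libraries (from genome-wide mapping of cleaved and uncapped transcripts) count RNA ends that carry no cap, which arise in RNA decay. Whether the replicates are different plants is not in the labels. P-values thus measure the spread among these libraries alone, and that spread may be technical. In whole leaves, fewer cells of a type and less RNA per cell cannot be told apart, and within a single day of light and darkness an internal clock and a response to light cannot be told apart.

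Counts in genes ranged from 6632784 to 27126312 per mRNA library and from 15739253 to 20581411 per GMUCT library, and the lowest raw count of any of the 9 genes in any library was 61 in mRNA and 191 in GMUCT. Levels are CPM, counts scaled to a common library total within each assay. CPM are not divided by transcript length, so levels are compared between times for a gene and never between genes. Before any result, 1 time stands apart. Over 9880 genes, the departure of a time from the gene's mean over the day correlated between mRNA and GMUCT with r from 0.67 to 0.77 at 5 of the times, but with r = -0.05 at Dark 0 h, where the mRNA was most like the GMUCT of Dark 4 h (r = 0.29). Which assay's Dark 0 h libraries depart from their label, if either, was not tested. The tests over the day, the ranges, the peak hours and the fall into the dark are therefore also given without it, the last by stepping from Light 8 h straight to Dark 4 h, comparisons added after the data had been seen. Differences of Dark 0 h from Light 0 h have no such counterpart.

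In mRNA, all 9 genes changed over the day (edgeR quasi-likelihood test over the 6 times, largest adjusted p among them 7.28e-05), against 70.9% of the 19711 genes tested. All 9 also carried a 24 h term, against 68.2% of genes. The genes differed in how far they moved. The ratio of the highest to the lowest time was 41.0-fold for NCED1 and 35.3-fold for ZEP, and only 1.48% and 1.69% of genes had a wider range. BCH1 ranged 15.7-fold, LCYB 9.28-fold, BCH2 7.81-fold, VDE 7.15-fold, LCYE 7.03-fold, CYP97C11 4.13-fold and CYP97A29 3.11-fold. The median range of all genes was 1.27 on the log2 scale, and that of CYP97A29 was 1.64, which 35.0% of genes exceeded. With Dark 0 h left out, the range of BCH1 was 14.6-fold and that of CYP97A29 was 1.26 on the log2 scale (44.3% of genes had a wider range), and the other 7 mRNA ranges did not involve that time.

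In GMUCT, 7 of the 9 genes changed over the day, against 58.4% of the 20696 genes tested, and the same number carried a 24 h term, against 62.7%. BCH2 (adjusted p = 0.231) and CYP97A29 (adjusted p = 0.069) did not pass the test for any change. CYP97A29 passed with a replicate block (adjusted p = 0.0394), with DESeq2 (0.0298) and without any 1 of 3 libraries, Light 4 h replicate 1, Dark 0 h replicate 2 or Dark 4 h replicate 2 (lowest adjusted p 0.0305). ZEP had the widest GMUCT range of the 9, 4.86 on the log2 scale, and CYP97A29 the narrowest, 0.56, against a median of 0.98 over all genes. Leaving out Dark 0 h, CYP97C11 had the narrowest GMUCT range, 0.45 in place of 0.70. The ranges of LCYE (1.97 in place of 2.15), VDE (1.09 in place of 1.41) and NCED1 (2.67 in place of 2.79) narrowed too. The other GMUCT ranges did not involve that time. Without the Dark 0 h libraries all 9 genes still passed in mRNA, against 66.5% of genes, and 6 passed in GMUCT, against 53.3%. The gene that no longer passed in GMUCT was CYP97C11 (adjusted p = 0.0514). The 24 h term was then called for 9 genes in mRNA, against 68.2% of genes, and for 6 in GMUCT, against 55.5%, VDE being the gene lost (adjusted p = 0.0739).

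**Figure D1:**
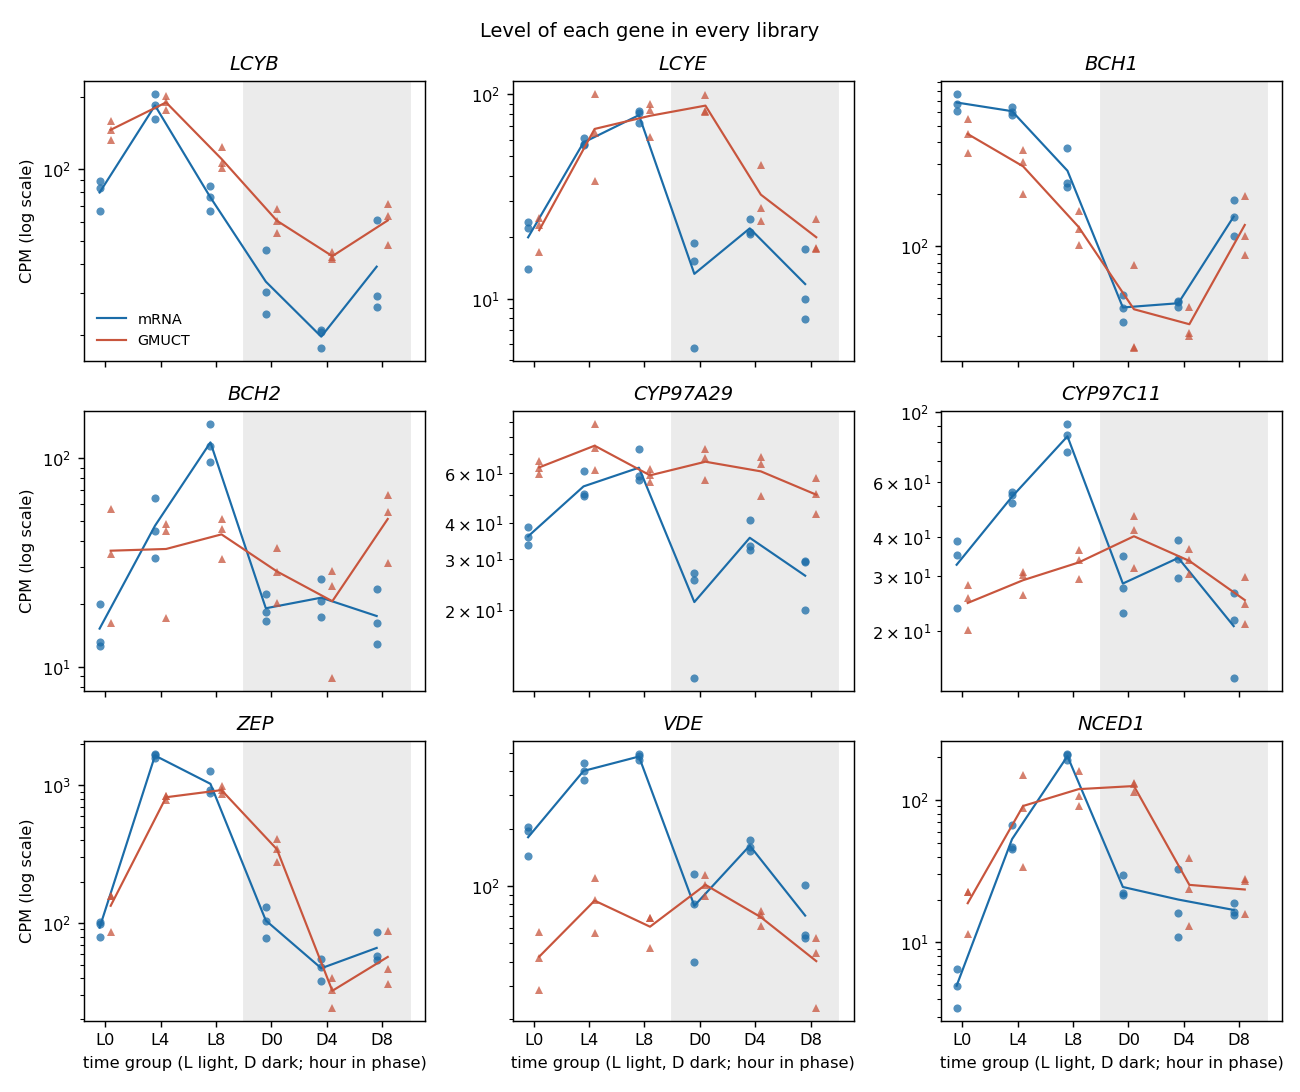
Level of each of the 9 genes in every library, in CPM on a log axis, by time group (blue circles mRNA, red triangles GMUCT, lines joining group means, grey for the dark phase). ZEP mRNA stands at 1578 CPM or more in all 3 libraries of Light 4 h and at 55.2 CPM or less in all 3 of Dark 4 h, NCED1 mRNA peaks at Light 8 h, and BCH1 mRNA is highest at Light 0 h.

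Over the day's first step, from Light 0 h to Light 4 h, the mRNA of 7 of the 9 genes rose, where 22.4% of genes did. From Light 4 h to Light 8 h 3 rose and 3 fell, where 9.53% of genes rose and 7.16% fell. Between Light 8 h and Dark 0 h all 9 fell, where 22.7% of genes fell. Stepping over Dark 0 h, all 9 also fell by Dark 4 h, where 21.7% of genes fell. Within the night the genes parted. From Dark 0 h to Dark 4 h 2 rose and 2 fell (12.6% and 11.1% of genes), from Dark 4 h to Dark 8 h 2 rose and 2 fell (7.28% and 8.11%), and from Dark 8 h to Light 0 h 3 rose and 1 fell (3.63% and 2.29%).

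LCYB, the cyclase that makes beta rings, had mRNA levels of 66.3, 83.1 and 89.2 CPM at Light 0 h, 185, 162 and 207 CPM at Light 4 h, and 85.0, 75.9 and 66.7 CPM at Light 8 h. Dark levels were 45.7, 30.5 and 24.7 CPM at Dark 0 h, 17.7, 21.0 and 20.6 CPM at Dark 4 h, and 26.2, 29.2 and 61.2 CPM at Dark 8 h. It peaked at Light 4 h and was lowest at Dark 4 h, and the libraries of these times did not overlap with those of either neighbouring time. Its mRNA rose in the early light (1.21 ± 0.26 on the log2 scale, SE; adjusted p = 0.000901, edgeR) and fell by Light 8 h (-1.28 ± 0.26; adjusted p = 0.00185). It fell again to Dark 0 h (-1.18 ± 0.27; adjusted p = 0.00143), and its recovery began within the night, with a rise from Dark 4 h to Dark 8 h (0.97 ± 0.27; adjusted p = 0.0207) followed by another to Light 0 h (1.04 ± 0.26; adjusted p = 0.0235). The rise within the night lost its call without Dark 4 h replicate 1 or without Dark 8 h replicate 3, the library at 61.2 CPM (highest adjusted p 0.17), and that to Light 0 h without any 1 of 4 libraries, Light 0 h replicates 2 and 3 and Dark 8 h replicates 1 and 2 (highest adjusted p 0.146). The fall from Dark 0 h to Dark 4 h (-0.76 ± 0.27; adjusted p = 0.0474) was lost without any 1 of 11 libraries (highest adjusted p 0.23). The fall from Light 8 h by Dark 4 h, fitted without Dark 0 h, was -1.94 ± 0.26 (adjusted p = 1.93e-05).

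LCYB GMUCT had the same highest and lowest times, with a range of 2.14 on the log2 scale against 3.21 in mRNA (test of the ratio over the day, adjusted p = 0.0823). It was 132, 146 and 159 CPM at Light 0 h, 177, 191 and 203 CPM at Light 4 h, and 105, 124 and 101 CPM at Light 8 h. In the dark it was 53.7, 60.1 and 67.9 CPM at Dark 0 h, 41.6, 42.6 and 44.8 CPM at Dark 4 h, and 63.2, 48.0 and 71.0 CPM at Dark 8 h. As in mRNA, the highest libraries were those of Light 4 h and the lowest those of Dark 4 h. GMUCT fell from Light 4 h to Light 8 h (log2 change -0.79 ± 0.14, SE; adjusted p = 0.00117, edgeR) and on to Dark 0 h (-0.86 ± 0.14; adjusted p = 0.00117), and rose from Dark 8 h to Light 0 h (1.26 ± 0.14; adjusted p = 2.52e-05). The small rise to Light 4 h (0.38 ± 0.14; adjusted p = 0.0477) was lost without any 1 of 12 libraries (highest adjusted p 0.167). The fall from Dark 0 h to Dark 4 h (-0.49 ± 0.14; adjusted p = 0.0173) was lost without Dark 0 h replicate 3, Dark 4 h replicate 1 or Dark 4 h replicate 2 (highest adjusted p 0.0773), while the fall from Light 8 h by Dark 4 h, without Dark 0 h, was -1.36 ± 0.14 (adjusted p = 9.96e-06).

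LCYE, the cyclase that makes the epsilon ring of lutein, had its highest mRNA mean 1 sampling time later. Its mRNA was 23.6, 13.9 and 22.3 CPM at Light 0 h, 56.8, 56.1 and 61.2 CPM at Light 4 h, and 72.6, 83.1 and 81.2 CPM at Light 8 h. It was 15.2, 18.7 and 5.72 CPM at Dark 0 h, 20.7, 24.4 and 21.1 CPM at Dark 4 h, and 9.89, 17.5 and 7.94 CPM at Dark 8 h. Every library of Light 4 h and Light 8 h lay above every library of the other 4 times. The rise in the early light (log2 change 1.54 ± 0.32, SE; adjusted p = 0.000561, edgeR) and the fall to Dark 0 h (-2.57 ± 0.33; adjusted p = 4.3e-06) were the only 2 of its 6 steps that passed in mRNA. Between Light 4 h and Light 8 h the difference was 0.44 ± 0.31 (adjusted p = 0.374). It passed when only the groups compared were fitted (adjusted p = 0.00785).

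LCYE GMUCT rose with the mRNA but was still high at Dark 0 h, where the assays did not match over all genes. It was 16.9, 23.0 and 24.9 CPM at Light 0 h, 37.8, 64.5 and 101 CPM at Light 4 h, and 83.6, 89.8 and 61.8 CPM at Light 8 h. It was still 82.4, 99.4 and 82.1 CPM at Dark 0 h, and then 27.8, 23.9 and 45.0 CPM at Dark 4 h and 17.7, 17.5 and 24.6 CPM at Dark 8 h. The libraries of Light 8 h and Dark 0 h overlapped in GMUCT (log2 change 0.17 ± 0.29, SE; adjusted p = 0.765, edgeR), while those of mRNA did not, and GMUCT fell from Dark 0 h to Dark 4 h (-1.45 ± 0.30; adjusted p = 0.00277). Without Dark 0 h, the fall between Light 8 h and Dark 4 h was -1.84 ± 0.24 in mRNA (adjusted p = 1.59e-05) and -1.28 ± 0.32 in GMUCT (adjusted p = 0.00856). The change in the ratio of GMUCT to mRNA over that interval did not pass (0.55 ± 0.41; adjusted p = 0.408).

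BCH1 and BCH2 are non-haem carotene hydroxylases that add hydroxyl groups to beta rings. BCH1 mRNA was highest at Light 0 h and Light 4 h, and it was 608, 768 and 674 CPM at Light 0 h, 578, 605 and 642 CPM at Light 4 h, and 371, 219 and 231 CPM at Light 8 h. In the dark it was 36.1, 52.0 and 43.3 CPM at Dark 0 h, 47.1, 47.7 and 44.2 CPM at Dark 4 h, and 113, 147 and 184 CPM at Dark 8 h. The libraries of Light 0 h and Light 4 h overlapped, those of Dark 0 h and Dark 4 h overlapped, and the rise began before the light did. BCH1 mRNA fell over Light 4 h to Light 8 h (log2 change -1.15 ± 0.21, SE; adjusted p = 0.000573, edgeR) and to Dark 0 h (-2.64 ± 0.22; adjusted p = 2.94e-08). It rose from Dark 4 h to Dark 8 h (1.68 ± 0.21; adjusted p = 3.68e-05) and further to Light 0 h (2.21 ± 0.22; adjusted p = 3.53e-06). Its fall from Light 8 h by Dark 4 h, fitted without Dark 0 h, was -2.56 ± 0.22 (adjusted p = 2.1e-07).

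BCH1 GMUCT had the same order of times from Light 0 h down to Dark 8 h, with Dark 4 h lowest in place of Dark 0 h. It was 547, 449.8 and 347 CPM at Light 0 h, 200, 309 and 362 CPM at Light 4 h, and 101, 161 and 125 CPM at Light 8 h. It was 77.0, 25.4 and 25.9 CPM at Dark 0 h, 31.1, 43.9 and 30.0 CPM at Dark 4 h, and 115, 194 and 88.0 CPM at Dark 8 h. Replicate 1 of Dark 0 h lay well above the other 2 of its group. GMUCT rose over Dark 4 h to Dark 8 h (log2 change 1.92 ± 0.41, SE; adjusted p = 0.0145, edgeR) and to Light 0 h (1.76 ± 0.40; adjusted p = 0.0125), and fell over Light 8 h to Dark 0 h (-1.59 ± 0.40; adjusted p = 0.0209). Each of these 3 calls was lost without certain libraries. The first was lost without Dark 4 h replicate 1 or 3 or Dark 8 h replicate 2 (highest adjusted p 0.0858), the second without Light 0 h replicate 1 or Dark 8 h replicate 1 or 3 (0.0602), and the last without Light 8 h replicate 2 or 3 or Dark 0 h replicate 2 or 3 (0.108). By Dark 4 h, without Dark 0 h, the fall was -1.88 ± 0.31 (adjusted p = 0.00055).

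BCH2, which in tomato is best known for its role in flower pigmentation, had its mRNA maximum at Light 8 h. It was 13.1, 20 and 12.6 CPM at Light 0 h, 44.7, 64.5 and 33.1 CPM at Light 4 h, then 115, 96.1 and 146 CPM at Light 8 h. Dark levels were 18.4, 16.5 and 22.4 CPM at Dark 0 h, 26.3, 20.8 and 17.3 CPM at Dark 4 h, and 12.9, 16.2 and 23.5 CPM at Dark 8 h. The 3 dark times and Light 0 h overlapped with each other at each step, and the 3 libraries of Light 8 h lay above all others. Its mRNA rose at both steps between Light 0 h and Light 8 h, by 1.64 ± 0.27 and then 1.33 ± 0.26 on the log2 scale (SE; adjusted p = 6.32e-05 and 0.00128, edgeR), and fell to Dark 0 h (-2.64 ± 0.28; adjusted p = 4.09e-07) or, without it, by Dark 4 h (-2.49 ± 0.28; adjusted p = 4.36e-06).

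BCH2 GMUCT spread widely between replicates, with 57.1, 34.7 and 16.2 CPM at Light 0 h, 17.2, 44.6 and 48.3 CPM at Light 4 h, and 32.8, 45.6 and 51.0 CPM at Light 8 h. It was 37.1, 28.6 and 20.3 CPM at Dark 0 h, 8.84, 24.3 and 28.8 CPM at Dark 4 h, and 55.2, 66.6 and 31.5 CPM at Dark 8 h. The only neighbouring times whose GMUCT libraries did not overlap were Dark 4 h and Dark 8 h (log2 change 1.31 ± 0.49, SE; adjusted p = 0.141, edgeR). The rise of its mRNA to Light 8 h had no counterpart that the test could call in GMUCT. The change in the ratio of GMUCT to mRNA did not pass at either step of that rise (-1.57 ± 0.58 and -1.09 ± 0.57; adjusted p = 0.0703 and 0.315). The first of these passed with DESeq2 (adjusted p = 0.0323).

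CYP97A29 and CYP97C11 are cytochrome P450 hydroxylases of lutein synthesis, the first acting mainly on beta rings and the second on epsilon rings. CYP97A29 had the narrowest mRNA range of the 9. Its mRNA was 38.7, 33.5 and 35.8 CPM at Light 0 h, 61.1, 49.8 and 50.5 CPM at Light 4 h, and 72.9, 58.2 and 56.4 CPM at Light 8 h. It then stood at 11.5, 26.9 and 25.3 CPM at Dark 0 h, 32.2, 41.2 and 33.3 CPM at Dark 4 h, and 29.3, 29.6 and 19.9 CPM at Dark 8 h. All libraries of Light 4 h and Light 8 h lay above those of the other times, and replicate 1 of Dark 0 h was the lowest. The difference between Light 0 h and Light 4 h was 0.58 ± 0.24 on the log2 scale (SE; adjusted p = 0.0511, edgeR), just outside the threshold, and passed with DESeq2 (adjusted p = 0.0289). The fall from Light 8 h to Dark 0 h passed (-1.55 ± 0.24; adjusted p = 3.78e-05), as did that from Light 8 h straight to Dark 4 h (-0.81 ± 0.17; adjusted p = 0.0012). The rise from Dark 0 h to Dark 4 h (0.74 ± 0.24; adjusted p = 0.0299) was lost without Dark 0 h replicate 1 or Dark 4 h replicate 2 or 3 (highest adjusted p 0.138). In GMUCT its group means stayed between 50.3 ± 7.14 CPM at Dark 8 h and 74.6 ± 13.8 CPM at Light 4 h (SD, n = 3).

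CYP97C11 climbed from Light 0 h to Light 8 h. Its mRNA was 38.9, 23.8 and 35.0 CPM at Light 0 h, 54.2, 51.2 and 55.7 CPM at Light 4 h, and 91.7, 74.6 and 84.6 CPM at Light 8 h. It was then 27.5, 34.7 and 22.9 CPM at Dark 0 h, 29.6, 39.1 and 34.0 CPM at Dark 4 h, and 21.7, 26.4 and 14.2 CPM at Dark 8 h. The libraries of the 3 light times did not overlap with each other, and those of Light 8 h were the highest. The fall to Dark 0 h passed (log2 change -1.56 ± 0.22, SE; adjusted p = 1.18e-05, edgeR), and the fall to Dark 4 h without Dark 0 h was -1.28 ± 0.21 (adjusted p = 0.000143). The rise to Light 4 h (0.72 ± 0.21; adjusted p = 0.00979) was lost without Light 0 h replicate 2, the library at 23.8 CPM (adjusted p = 0.0808). That to Light 8 h (0.64 ± 0.21; adjusted p = 0.0456) was lost without any 1 of 12 libraries (highest adjusted p 0.192), and the fall from Dark 4 h to Dark 8 h (-0.73 ± 0.22; adjusted p = 0.0298) without Dark 4 h replicate 2 or 3 or Dark 8 h replicate 1 or 3 (highest adjusted p 0.133). Its GMUCT group means lay between 24.6 ± 4.06 CPM at Light 0 h and 40.1 ± 7.55 CPM at Dark 0 h (SD, n = 3), the next highest being 33.5 ± 3.07 CPM at Dark 4 h.

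ZEP, which closes the xanthophyll cycle by epoxidising zeaxanthin, made the largest change at a single step of any of the 9 mRNAs. Its mRNA was 78.8, 98.0 and 101 CPM at Light 0 h, 1663, 1578 and 1695 CPM at Light 4 h, and 1269, 877 and 933 CPM at Light 8 h. It was 104, 132 and 77.8 CPM at Dark 0 h, 48.2, 37.8 and 55.2 CPM at Dark 4 h, and 53.6, 86.6 and 58.1 CPM at Dark 8 h. The lowest of the 6 libraries of Light 4 h and Light 8 h was at 877 CPM, and the highest library of the other 4 times was at 132 CPM. The rise to Light 4 h was 17.7-fold (log2 change 4.15 ± 0.25, SE; adjusted p = 8.77e-10, edgeR). The fall to Dark 0 h was 9.81-fold (-3.29 ± 0.24; adjusted p = 7.71e-09), and a further fall to Dark 4 h followed (-1.15 ± 0.23; adjusted p = 0.00123). Without Dark 0 h, the fall to Dark 4 h was -4.45 ± 0.24 (adjusted p = 2.55e-09). The decline within the light phase, between Light 4 h and Light 8 h (-0.68 ± 0.22; adjusted p = 0.0412), was lost without any 1 of 5 libraries, all 3 of Light 4 h and replicates 2 and 3 of Light 8 h (highest adjusted p 0.148).

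ZEP GMUCT rose with the mRNA but had fallen less by Dark 0 h, where the assays did not match over all genes. It was 157, 158 and 86.5 CPM at Light 0 h, 785, 835 and 840.1 CPM at Light 4 h, and 860.0, 925 and 986 CPM at Light 8 h. In the dark it went through 411, 344 and 276 CPM at Dark 0 h, 24.2, 39.9 and 32.8 CPM at Dark 4 h, and 46.4, 88.1 and 36.2 CPM at Dark 8 h. All libraries of Light 8 h were above all libraries of Light 4 h, the reverse of the order in mRNA, but the difference was small (log2 change 0.17 ± 0.29, SE; adjusted p = 0.767, edgeR). The main fall of GMUCT came between Dark 0 h and Dark 4 h, by 10.6-fold (-3.41 ± 0.32; adjusted p = 2.71e-06), after a smaller fall between Light 8 h and Dark 0 h (-1.43 ± 0.29; adjusted p = 0.0066). Stepping over Dark 0 h, from Light 8 h to Dark 4 h, the change in the ratio of GMUCT to mRNA did not pass (-0.40 ± 0.37; adjusted p = 0.519). There the change in GMUCT itself was -4.84 ± 0.35 (adjusted p = 3.21e-07). The rise from Dark 8 h to Light 0 h (1.23 ± 0.29; adjusted p = 0.017), whose libraries overlapped, was lost without Light 0 h replicate 1 or 2 or Dark 8 h replicate 1 or 3 (highest adjusted p 0.0812).

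VDE, the enzyme that runs the cycle in the opposite direction, was also highest in the light phase, with a range of 7.15-fold against 35.3-fold for ZEP, a difference that was not tested. Its mRNA was 144, 194 and 203 CPM at Light 0 h, 404, 361 and 439.8 CPM at Light 4 h, then 483, 494 and 457 CPM at Light 8 h. It was 80.9, 115 and 39.9 CPM at Dark 0 h, 153, 160.2 and 175 CPM at Dark 4 h, and 55.0, 102 and 53.1 CPM at Dark 8 h. The libraries of Light 4 h and Light 8 h lay above all others, and those of Dark 4 h lay above those of both neighbouring times. VDE mRNA rose in the early light (1.16 ± 0.29 on the log2 scale, SE; adjusted p = 0.00276, edgeR), fell to Dark 0 h (-2.60 ± 0.30; adjusted p = 1.46e-06), rose to Dark 4 h (1.05 ± 0.29; adjusted p = 0.0132) and fell to Dark 8 h (-1.22 ± 0.29; adjusted p = 0.00789). Without Dark 0 h the fall by Dark 4 h was -1.55 ± 0.22 (adjusted p = 3.16e-05). The rise from Dark 8 h to Light 0 h (1.37 ± 0.29; adjusted p = 0.00688) was lost without Dark 8 h replicate 1 (adjusted p = 0.0526).

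VDE GMUCT took a different course from its mRNA (test of the ratio over the day, adjusted p = 7.96e-06). It was 41.7, 28.5 and 57.5 CPM at Light 0 h, 56.7, 84.8 and 109.9 CPM at Light 4 h, and 68.0, 68.2 and 47.2 CPM at Light 8 h. In the dark it was 101, 88.8 and 114 CPM at Dark 0 h, 70.7, 61.5 and 73.5 CPM at Dark 4 h, and 44.5, 22.9 and 53.6 CPM at Dark 8 h. The highest group was Dark 0 h, a time at which its mRNA was among the lowest and the assays did not match over all genes. Without Dark 0 h the highest GMUCT mean was at Light 4 h, and the ratio still changed over the day (edgeR, adjusted p = 0.00129). The only step of VDE GMUCT that passed was the rise to Light 4 h (log2 change 0.98 ± 0.30, SE; adjusted p = 0.0218, edgeR), whose libraries overlapped at 57.5 and 56.7 CPM and which was lost without Light 0 h replicate 1 or 2 or Light 4 h replicate 2 or 3 (highest adjusted p 0.115). Between Light 8 h and Dark 4 h, where the mRNA fell, the GMUCT difference was 0.17 ± 0.31 (adjusted p = 0.73).

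NCED1, the tomato dioxygenase whose loss gives the wilty mutant notabilis, rose from Light 0 h to Light 8 h. Its mRNA was 6.50, 4.95 and 3.46 CPM at Light 0 h, 46.8, 67.2 and 45.1 CPM at Light 4 h, then 190.0, 207 and 210.5 CPM at Light 8 h. It was 29.9, 22.2 and 21.4 CPM at Dark 0 h, 16.1, 33.0 and 10.9 CPM at Dark 4 h, and 15.6, 16.3 and 18.8 CPM at Dark 8 h. Light 0 h was its lowest time, below every library of the night, and Light 8 h its highest. The mRNA rose 10.5-fold to Light 4 h (log2 change 3.40 ± 0.33, SE; adjusted p = 1.63e-07, edgeR) and a further 3.82-fold to Light 8 h (1.93 ± 0.30; adjusted p = 0.000105). It was then 8.27-fold lower at Dark 0 h (-3.05 ± 0.31; adjusted p = 3.15e-07). Without Dark 0 h, the fall to Dark 4 h was -3.33 ± 0.32 (adjusted p = 8.65e-07). At the end of the night NCED1 was the only 1 of the 9 whose mRNA fell into Light 0 h (-1.75 ± 0.32; adjusted p = 0.00188). From Dark 0 h to Dark 4 h the difference of -0.29 ± 0.30 (adjusted p = 0.53) passed as a fall without Dark 4 h replicate 2, the library at 33.0 CPM (adjusted p = 0.0159).

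NCED1 GMUCT was 22.6, 22.4 and 11.5 CPM at Light 0 h, 33.9, 87.3 and 151 CPM at Light 4 h, and 90.3, 159.7 and 107 CPM at Light 8 h. In the dark it was 131, 130.2 and 114 CPM at Dark 0 h, 13.1, 23.9 and 39.0 CPM at Dark 4 h, and 26.8, 27.9 and 15.8 CPM at Dark 8 h. The libraries of Light 4 h, Light 8 h and Dark 0 h overlapped at each step, and the fall came after Dark 0 h. GMUCT rose to Light 4 h (log2 change 2.26 ± 0.47, SE; adjusted p = 0.00192, edgeR) and fell from Dark 0 h to Dark 4 h (-2.30 ± 0.47; adjusted p = 0.00227). Stepping over Dark 0 h, where the assays did not match over all genes, GMUCT changed by -2.23 ± 0.50 (adjusted p = 0.00452). The change in the ratio of GMUCT to mRNA over that interval did not pass (1.09 ± 0.60; adjusted p = 0.237).

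Counted by step in GMUCT, 5 of the 9 genes rose from Light 0 h to Light 4 h (14.8% of genes rose) and 1 fell from Light 4 h to Light 8 h (6.59%). Into the dark, 3 fell from Light 8 h to Dark 0 h (4.01%) and 4 fell from Dark 0 h to Dark 4 h (13%). Late in the night 1 rose from Dark 4 h to Dark 8 h (1.81%) and 3 rose from Dark 8 h to Light 0 h (3.91%). Stepping over Dark 0 h, 5 of the 9 fell in GMUCT between Light 8 h and Dark 4 h, where 14% of genes fell. They were LCYB, LCYE, BCH1, ZEP and NCED1.

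**Figure D2:**
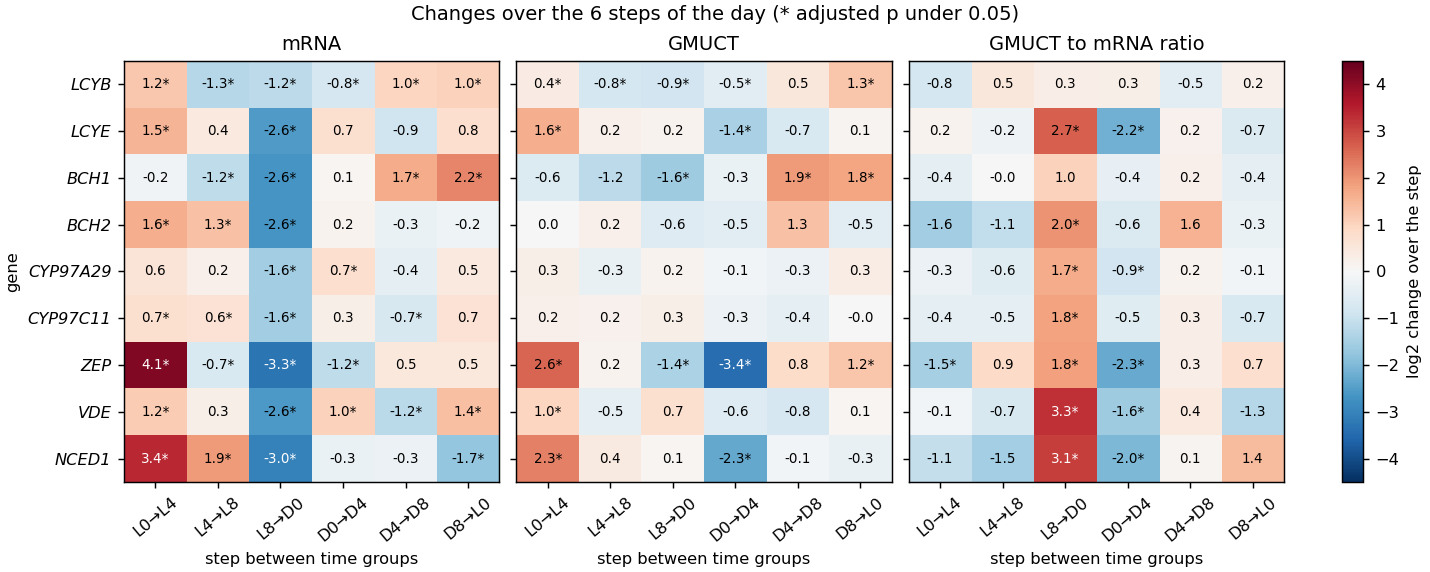
Log2 change of each gene at each of the 6 steps between neighbouring times (L light, D dark, hour in phase) in mRNA, in GMUCT and in the ratio of GMUCT to mRNA, as colour and printed value, with a star where the adjusted p was under 0.05. In mRNA the column from Light 8 h to Dark 0 h is blue with a star for all 9 genes, and in the ratio that column is red with a star for 7.

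Opposite points of the 2 phases were compared next. At Dark 4 h the mRNA of all 9 genes was lower than at Light 4 h, where 21.6% of genes were lower, and at Dark 8 h all 9 were lower than at Light 8 h, where 25.5% were. The differences from Light 4 h to Dark 4 h ran from -0.59 ± 0.24 for CYP97A29 (log2, SE; adjusted p = 0.048, lost without any 1 of 10 libraries, highest adjusted p 0.158) to -5.13 ± 0.26 for ZEP (adjusted p = 5.69e-11, edgeR). That of CYP97C11 (-0.64 ± 0.21; adjusted p = 0.0195) was lost without Light 4 h replicate 3 or Dark 4 h replicate 1 (highest adjusted p 0.0684). Those from Light 8 h to Dark 8 h ran from -0.89 ± 0.21 for BCH1 (adjusted p = 0.00158) to -3.96 ± 0.25 for ZEP (adjusted p = 1.05e-09). At the start of the phases the genes split. At Dark 0 h 4 were lower than at Light 0 h in mRNA (20% of genes were), among them BCH1 (-3.96 ± 0.23; adjusted p = 7.75e-10), and only NCED1 was higher (2.28 ± 0.32; adjusted p = 2.24e-05; 16.8% of genes were higher). The other 3 that were lower were LCYB, VDE and CYP97A29, and the call of CYP97A29 (-0.76 ± 0.24; adjusted p = 0.0174) was lost without Light 0 h replicate 1 or 3 or Dark 0 h replicate 1 (highest adjusted p 0.11).

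In GMUCT, 5 of the 9 were lower at Dark 4 h than at Light 4 h (15.5% of genes were), 4 were lower at Dark 8 h than at Light 8 h (16.1%), and at Dark 0 h against Light 0 h 5 were higher (23.4%) and 2 lower (23.1%). The change of ZEP was -4.67 ± 0.34 in the first and -4.02 ± 0.33 in the second (log2, SE; adjusted p = 3.42e-08 and 2.65e-07, edgeR). LCYE, which was lower at Dark 4 h (-1.07 ± 0.30; adjusted p = 0.0122), had overlapping libraries there and lost the call without Light 4 h replicate 3 or Dark 4 h replicate 1 or 2 (highest adjusted p 0.0956). The 2 lower at Dark 0 h were BCH1 (-3.39 ± 0.43; adjusted p = 1.07e-05) and LCYB (-1.27 ± 0.14; adjusted p = 3.16e-06), while LCYE, CYP97C11, ZEP, VDE and NCED1 were higher.

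For each gene, the change of GMUCT over time was then set against that of mRNA, and the test was on their ratio. It is a relative measure, since each assay has its own scale. Of the 9 genes, 7 changed in ratio over the day, against 53.7% of the 19161 genes tested, the other 2 being LCYB (adjusted p = 0.0823) and BCH1 (adjusted p = 0.206). A 24 h term in the ratio was called for 6, against 44.9%, and those of CYP97A29 (adjusted p = 0.0255) and ZEP (adjusted p = 0.0273) were each lost without any 1 of 4 libraries (highest adjusted p 0.0597 and 0.063). Without Dark 0 h, 6 genes changed in ratio, against 34.5%, and the gene lost was LCYE (adjusted p = 0.455). The 24 h term in the ratio was then called for 5, against 35%, with LCYE (adjusted p = 0.31) and ZEP (adjusted p = 0.376) lost and NCED1 gained.

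VDE had the lowest ratio of the 9 at every time but Dark 0 h. Neither assay's CPM is divided by length, so a ratio is set beside those of other genes only as a description. On the log2 scale its GMUCT was below its mRNA by a ratio of -2.12 (Light 0 h), -2.31 (Light 4 h) and -2.98 (Light 8 h), where only 5.71%, 3.29% and 1.62% of genes had a lower ratio. At Dark 0 h its ratio was 0.49, next to the median of all genes at 0.50, and it was -1.25 at Dark 4 h and -0.81 at Dark 8 h. LCYE kept ratios from -0.03 to 0.82 at 5 times and reached 2.88 at Dark 0 h, above 91.9% of genes. NCED1 went from 1.88 at Light 0 h down to -0.81 at Light 8 h and up to 2.36 at Dark 0 h, and BCH1 and LCYB moved least, BCH1 from -1.11 to -0.21 and LCYB from 0.05 to 1.12.

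**Figure D3:**
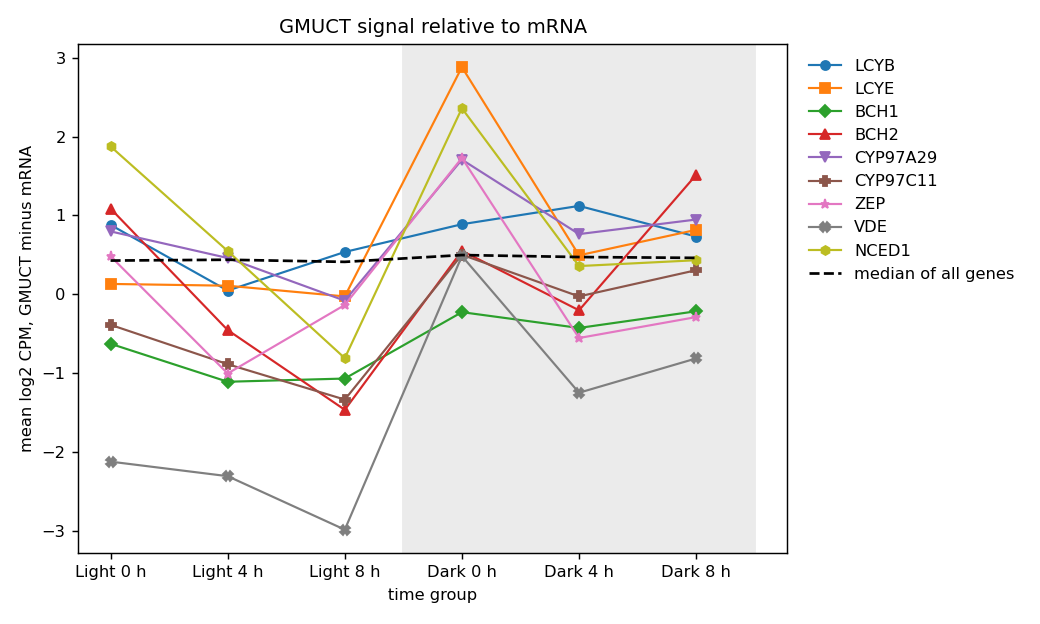
Mean log2 CPM of GMUCT minus that of mRNA for each gene by time group, with the median of all genes as a dashed line and the dark phase in grey. The ratio of VDE lies below -2 in the light phase and at 0.49 at Dark 0 h, and LCYE and NCED1 reach 2.88 and 2.36 there.

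By step, 1 gene lost ratio from Light 0 h to Light 4 h (4.93% of genes did), ZEP (log2 change -1.49 ± 0.37, SE; adjusted p = 0.00885, edgeR). LCYB (-0.79 ± 0.31; adjusted p = 0.0967) and BCH2 (-1.57 ± 0.58; adjusted p = 0.0703) did not pass there. Both passed with DESeq2 (adjusted p = 0.0495 and 0.0323) and with both assays scaled together (0.0435 and 0.0469). At the change from light to dark, Light 8 h to Dark 0 h, 7 gained ratio (20.5% of genes did), from 1.69 ± 0.29 for CYP97A29 to 3.30 ± 0.45 for VDE (adjusted p = 4.02e-05 and 1.29e-06). From Dark 0 h to Dark 4 h 5 of these 7 lost ratio (14% of genes did), LCYE, CYP97A29, ZEP, VDE and NCED1. Leaving out Dark 0 h, 3 genes gained ratio between Light 8 h and Dark 4 h (7.14% of genes did). VDE gained 1.71 ± 0.40 (adjusted p = 0.00568), CYP97C11 1.29 ± 0.27 (adjusted p = 0.00236) and CYP97A29 0.85 ± 0.23 (adjusted p = 0.0149). The same 3 gained ratio from Light 8 h to Dark 8 h, with BCH2 (4 genes; 8.53% of genes did). For VDE that gain was 2.13 ± 0.44 (adjusted p = 0.00136), for CYP97C11 1.57 ± 0.28 (adjusted p = 0.000306) and for BCH2 2.97 ± 0.58 (adjusted p = 0.000747). At Dark 4 h against Light 4 h 2 gained ratio (7.92%), and at Dark 0 h against Light 0 h 5 did (17.9%).

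Fitted to a 24 h wave, the mRNA peaks of the 9 genes all fell in the light phase but at different hours. BCH1 peaked at 2.44 h after Light 0 h and LCYB at 3.79 h. CYP97A29 (4.99 h), VDE (5.51 h), ZEP (5.80 h) and LCYE (6.10 h) lay close together, then CYP97C11 (6.79 h) and BCH2 (7.23 h), and NCED1 came last at 8.53 h. Leaving out any 1 library kept BCH1 between 2.29 and 2.56 h and NCED1 between 8.15 and 8.72 h, whereas the ranges of CYP97A29 (4.54 to 5.74 h), VDE (5.11 to 5.85 h), ZEP (5.70 to 5.88 h) and LCYE (5.73 to 6.47 h) overlapped, so the order of these 4 was not fixed. With samples 4 h apart, a fitted hour describes the shape of 6 means rather than a measured moment. In GMUCT, BCH1 (1.86 h), LCYB (3.58 h), ZEP (6.52 h) and NCED1 (8.63 h) peaked within 1 h of their mRNA, while LCYE (8.88 h), VDE (10.1 h) and CYP97C11 (11.4 h) peaked later than theirs. Those 3 and NCED1 were the genes with their highest GMUCT mean at Dark 0 h, and the difference in peak hour was not tested. Without Dark 0 h the mRNA peaks of 6 genes moved later by over 1 h, most for CYP97A29, to 7.87 h, behind ZEP (6.52 h) and VDE (7.61 h). LCYE moved to 8.02 h, CYP97C11 to 8.37 h, BCH2 to 8.83 h and NCED1 to 9.61 h. LCYE then peaked at 8.55 h in GMUCT, close to its mRNA, VDE at 9.43 h and CYP97C11 at 11.3 h. The 24 h term of VDE GMUCT did not pass in that fit (edgeR, adjusted p = 0.0739). NCED1 GMUCT then peaked at 8.17 h, no longer within 1 h of its mRNA. BCH1 stayed the earliest mRNA of the 9, at 2.62 h, and NCED1 the latest.

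**Figure D4:**
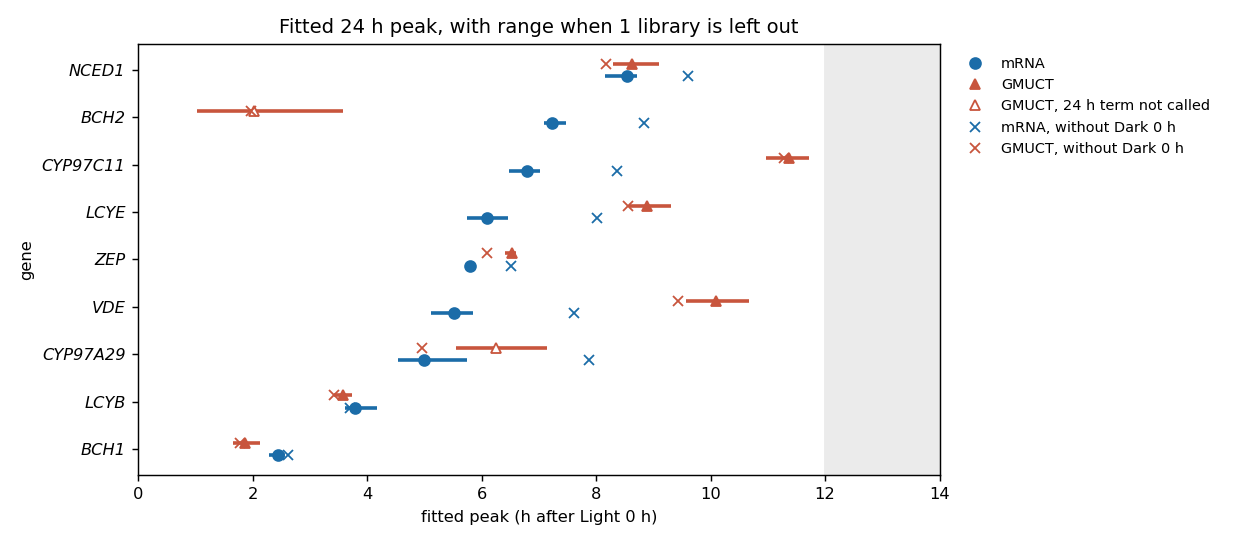
Fitted peak hour of each gene's 24 h wave (blue circles mRNA, red triangles GMUCT, open where the 24 h term did not pass), with lines from the earliest to the latest hour when 1 library at a time is left out and crosses for the fit without Dark 0 h. The mRNA peaks run from 2.44 h for BCH1 to 8.53 h for NCED1, and the GMUCT peaks of LCYE, VDE and CYP97C11 lie to the right of their mRNA peaks.

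Likeness between genes was described by Pearson's r of log2 CPM over the 18 mRNA libraries, which share the time groups and libraries. Among the 9, LCYE and VDE had r = 0.96, LCYE and CYP97C11 had r = 0.95, BCH2 and NCED1 had r = 0.90, and LCYB and BCH1 had r = 0.86. The 2 enzymes of the xanthophyll cycle, ZEP and VDE, had r = 0.81. At the other end, BCH1 had r = 0.28 with BCH2 and r = 0.01 with NCED1. Over the 15 libraries without Dark 0 h these values were 0.95, 0.97, 0.93, 0.90, 0.85, 0.18 and -0.01, in the same order. Of 10793 genes with a mean of at least 10 CPM, the gene most like ZEP was Solyc04g079050 (r = 0.98), with 71.7 CPM at Light 4 h and 2.01 CPM at Light 0 h. The gene most like VDE was Solyc08g069010 (r = 0.98), and for LCYE it was Solyc04g015490 (r = 0.98). NCED1 was most like Solyc03g019650 (r = 0.97), LCYB Solyc08g006160 (r = 0.97), and BCH1 Solyc11g012850 (r = 0.97). CYP97C11 was most like Solyc04g074750 (r = 0.96), BCH2 Solyc05g005280 (r = 0.95) and CYP97A29 Solyc01g105460 (r = 0.95). For CYP97C11 9 genes were more like it than its nearest member, LCYE, and for ZEP 779 genes were.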

How the data were processed

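Leaf RNA was measured in 36 libraries, 18 of mRNA (polyadenylated RNA) and 18 of GMUCT (total RNA), in 12 groups of 3 taken from the sample labels. The authors deposited raw read counts per gene, not normalised, with 34075 identifiers and 5 counters of reads outside genes, which were left out. The submitters' processing notes name HTSeq, cutadapt and STAR 2.4.2a. Settings, genome build, annotation and strand mode are not given in the sources used, so reads from genes that overlap on opposite strands may be mixed. Reads counted in genes were 88.0 to 90.2% of the total in mRNA and 54.4 to 85.3% in GMUCT.

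Each assay was fitted by itself, as 6 group means, with edgeR 4.0.16 (R 4.3.3) after filterByExpr, with TMM scaling (trimmed mean of M values). Its quasi-likelihood F-test asked for any difference among the 6 times, a 24 h cosine and sine with groups placed 4 h apart, the 6 steps and 3 opposite-phase contrasts. The ratio was tested as assay by time interactions in a joint fit of all 36 libraries, with TMM within each assay. P-values were adjusted by Benjamini and Hochberg over all genes of a test, threshold 0.05, and rose, fell and changed mean past it. The SE is the absolute log2 change divided by the square root of F. Log2 CPM used a prior count of 2. The fits were run on simulated counts with a single spread for all genes, which does not measure the error rate of these calls. Alternatives were DESeq2 1.42.0, factors by relative log expression (RLE), no filter, a replicate block, a fit of only the groups compared and each library left out. Joint scaling of both assays and every fit without Dark 0 h were chosen once values were known.

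Named are all 9 members and, for each, the 1 other gene with the highest Pearson r over mRNA libraries. The members, lists and tests were chosen with earlier results of these data known. None of the 34075 identifiers matched the RefSeq table of 41476 genes (0 found), so other pathway genes, leaf and fruit markers, lengths and sequences were not analysed here, and the leaf label was not checked.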

Additional observations from a re-analysis of the deposited data

Results flagged for a closer look

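The 24 results below are those where the change in GMUCT and the change in mRNA of a gene differed by the test of the difference itself (interaction of assay and time, edgeR, adjusted over all genes tested). Each value is the change in log2 ratio of GMUCT to mRNA, with an approximate SE where it is given in the text above. From Light 0 h to Light 4 h the ratio of ZEP changed by -1.49.

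Over the step from Light 8 h into Dark 0 h it changed by 2.70 for LCYE, 2.03 for BCH2, 1.69 for CYP97A29, 1.81 for CYP97C11, 1.84 for ZEP, 3.30 for VDE and 3.09 for NCED1. From Dark 0 h to Dark 4 h it changed by -2.18 for LCYE, -0.86 for CYP97A29, -2.26 for ZEP, -1.61 for VDE and -2.02 for NCED1. The last of these lost its call without mRNA Dark 4 h replicate 2 (adjusted p = 0.0787), and that of CYP97A29 without any 1 of 5 libraries (mRNA Dark 0 h replicate 1 and Dark 4 h replicate 2, GMUCT Dark 0 h replicates 1 and 3 and Dark 4 h replicate 2; highest adjusted p 0.111).

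At Dark 0 h against Light 0 h the ratio differed by 2.63 for LCYE, 0.85 for CYP97A29, 0.92 for CYP97C11, 1.21 for ZEP and 2.46 for VDE. That of ZEP lost its call without GMUCT Light 0 h replicate 3 (adjusted p = 0.0512), and that of CYP97A29 without any 1 of 4 libraries (mRNA Light 0 h and Dark 0 h replicate 1, GMUCT Light 0 h replicate 2 and Dark 0 h replicate 3; highest adjusted p 0.0848). These 17 values of 3 contrasts all use Dark 0 h, where the assays departed from each other over all genes (r = -0.05), and its part in them was not tested.

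At Dark 4 h against Light 4 h the ratio differed by 1.04 for LCYB, which lost its call without mRNA Light 4 h replicate 3, mRNA Dark 4 h replicate 1 or GMUCT Light 4 h replicate 1 (highest adjusted p 0.0561), and by 0.82 for CYP97C11, which lost it without any 1 of 10 libraries (highest adjusted p 0.104). At Dark 8 h against Light 8 h it differed by 2.97 for BCH2, 0.98 for CYP97A29, 1.57 for CYP97C11 and 2.13 for VDE. That of CYP97A29 was lost without mRNA Light 8 h replicate 1, mRNA Dark 8 h replicate 3 or GMUCT Dark 8 h replicate 3 (highest adjusted p 0.0682).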

How the results depend on the processing

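No change of the 9 genes that passed, as reported or under an alternative, reversed its direction under any alternative run. The counts of members called over the day and with a 24 h term moved by no more than 1.5 times. So did the counts pooled over the 6 steps and over the 3 opposite-phase contrasts. Counts at a single step could move more. In the ratio from Light 0 h to Light 4 h, LCYB and BCH2 joined ZEP with DESeq2 (adjusted p = 0.0495 and 0.0323). Of 129 changes that did not pass, 42 turned sign under at least 1 alternative and passed in none of those. Leaving out 1 library at a time, step calls ranged from 30 to 36 in mRNA, 13 to 18 in GMUCT and 11 to 14 in the ratio. Whether replicate numbers pair the libraries was not settled. The r of same-numbered departures ran from -0.32 to 0.33 in mRNA (median -0.04) and from -0.53 to 0.55 in GMUCT (median 0.003). Between different numbers the median r was -0.01 in mRNA and -0.06 in GMUCT. Of 18 libraries, 4 in mRNA and 9 in GMUCT correlated best with their own number. With a replicate block, mRNA step calls were 31, GMUCT 17 and ratio 13, and opposite-phase calls were 22, 16 and 10. Fitting only the groups compared, mRNA lost 7 calls and gained 2, GMUCT lost 4 and gained 2, and the ratio lost 2 and gained 4. Among those lost was the mRNA rise of VDE from Dark 0 h to Dark 4 h (adjusted p = 0.0553). The count of 24 h terms in the ratio was 5 without Dark 0 h. With DESeq2 or joint scaling, LCYB passed in ratio over the day (adjusted p = 0.041 and 0.0412). Precision is limited by 3 libraries per group and 6 times, and the lowest member count was 61 reads.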
